A study of Bos taurus with 30 samples.

Results

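DNMT3B, TERT, MSH5, SNAPC4, TEAD3, PROX2 and BSX are the 7 genes described here, out of the 27607 genes counted in peripheral white blood cells (PWBCs) of cattle. In the study's own list of genes more abundant in blood stored for 24 h, 24 carry the gene ontology term DNA binding. Among those that the paper's text names, these 7 are the ones that are not histone genes. They were therefore chosen on the contrast of 24 h against 1 h of storage, and their values in that contrast, and how many of them meet a rule for calling genes there, are given below only as a description from which nothing is inferred. Blood came from 5 yearling, estrus-synchronized heifers, Angus x Simmental crosses, named subjects A to E. Each heifer gave blood from the coccygeal vein (in the tail), processed at 1 h, and from the jugular vein (in the neck), processed at 1, 3, 6, 8 or 24 h. All tubes held the anticoagulant K2 EDTA and were kept cold until PWBCs, the nucleated cells of the buffy coat, were isolated. The groups were coccygeal 1 h (n = 5 libraries), jugular 1 h (n = 5), jugular 3-8 h (n = 15) and jugular 24 h (n = 5). The sources used join the columns of counts stored for 3, 6 and 8 h to no single time or heifer, so they form 1 group to which each heifer gave 3 libraries. Whether the counts themselves tell the heifer was not tested.

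Proteins that bind DNA carry out unlike tasks in a white blood cell. Some place marks on DNA or copy and repair it, some start transcription of particular kinds of gene, and some are transcription factors best known from the development of other tissues. DNMT3B is a de novo DNA methyltransferase, which adds methyl groups to unmethylated cytosines, and TERT is the reverse transcriptase subunit of telomerase, which lengthens chromosome ends and is induced in activated lymphocytes. MSH5 is a MutS homolog that works in meiotic recombination, and SNAPC4 is the largest subunit of the complex that starts transcription of small nuclear RNA genes. TEAD3 is the DNA-binding partner of the Hippo pathway's coactivators, PROX2 is a Prospero homeobox factor, and BSX is a brain-specific homeobox factor known from the hypothalamus. The genes lie on 6 chromosomes of the assembly ARS-UCD1.2, with MSH5 and TEAD3 on the same chromosome. DNMT3B (ENSBTAG00000003901) spans chr13:62142537-62176363 on the forward strand and TERT (ENSBTAG00000012567) spans chr20:71145309-71162695 on the forward strand. On the reverse strand are MSH5 (ENSBTAG00000019790, chr23:27558157-27578112), SNAPC4 (ENSBTAG00000000054, chr11:103832673-103855230), TEAD3 (ENSBTAG00000019495, chr23:9433659-9454855), PROX2 (ENSBTAG00000015052, chr10:86108354-86116785) and BSX (ENSBTAG00000013994, chr15:33598811-33602494). All 7 are annotated as protein coding. Fragments were counted without regard to strand, and in RefSeq's annotation of another assembly, ARS-UCD2.0, MSH5 overlaps CLIC1 and SNAPC4 overlaps CARD9, while the other 5 overlap no gene. Reads from an overlapping stretch could therefore not be assigned with certainty for MSH5 and SNAPC4.

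Library totals ranged from 12412619 to 19492274 counts (median 16925894), so that 3 counts, taken as the floor of detection, correspond to 0.154 to 0.242 CPM, the count of a gene scaled to a common library total. A gene was tested where its CPM exceeded 1 in 5 or more of the 30 libraries, which 14018 genes and all 7 DNA-binding genes did. BSX passed this filter through the stored libraries: its CPM exceeded 1 in 0 of 5 coccygeal and 1 of 5 jugular libraries at 1 h, against 9 of 15 at 3-8 h and 5 of 5 at 24 h. A gene that passes in this way is higher in the stored groups by the filter itself.

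The transcripts differed widely in abundance. Per kilobase of transcript, the order in jugular blood at 1 h was DNMT3B (18.1 ± 1.82 CPM per kb, mean ± SD, n = 5), SNAPC4 (15.1 ± 2.11), TERT (5.23 ± 0.927), BSX (1.16 ± 0.243), PROX2 (1.04 ± 0.294), TEAD3 (0.980 ± 0.117) and MSH5 (0.924 ± 0.163). The levels per kilobase of DNMT3B and SNAPC4 lay within their spread of each other, TERT stood apart from both neighbours, and the levels of the last 4 genes could not be ordered beyond their spread. At 24 h the same 3 genes led, with 25.8 ± 2.75 CPM per kb for DNMT3B, 21.9 ± 1.23 for SNAPC4 and 8.06 ± 1.80 for TERT (n = 5), and the others lay between 1.52 and 2.07 CPM per kb. The low level of MSH5, TEAD3, PROX2 and BSX means few fragments: their counts at 1 h ranged from 8 to 88 per library, against 253 to 1534 for the other 3 genes.

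**Figure D1:**
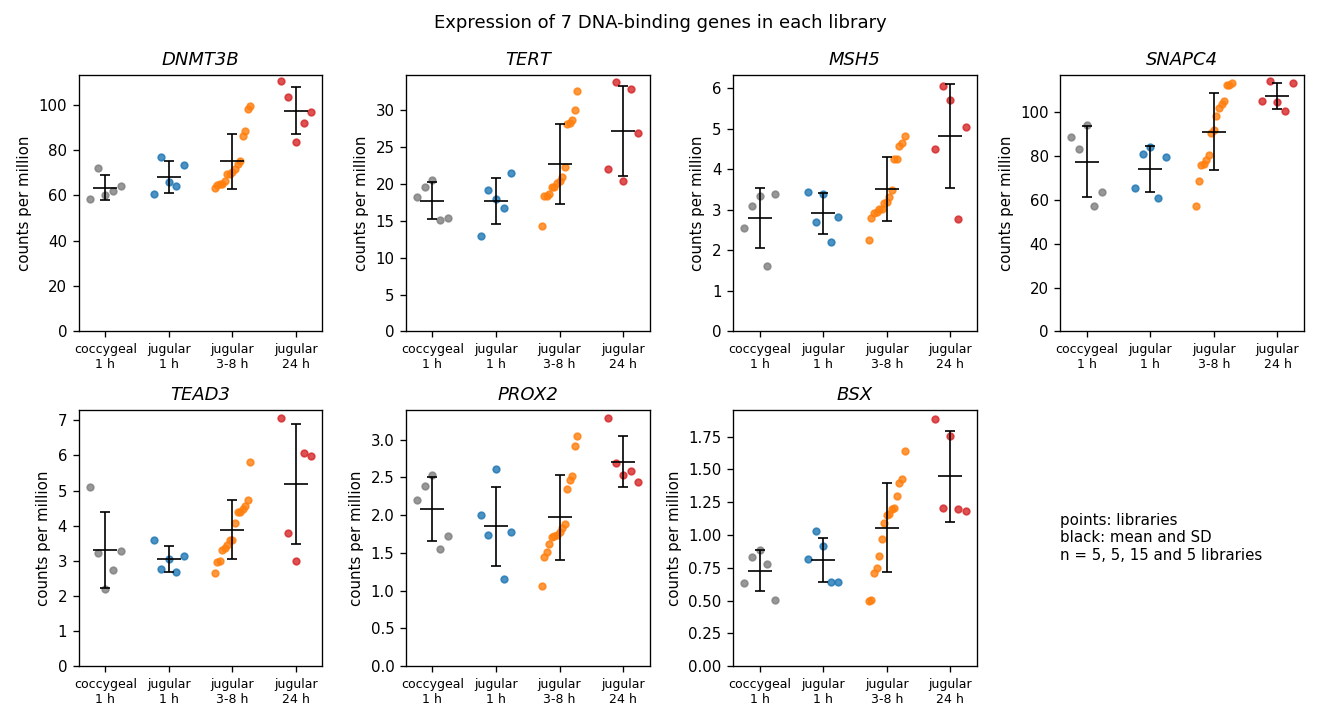
CPM (linear axes from 0) of each of the 7 genes in every library, by group; black bars give the mean and SD of 5, 5, 15 and 5 libraries, subjects A to E run from left to right in the groups of 5, and the 15 libraries at 3-8 h are drawn in order of their value. For DNMT3B, 4 of the 15 libraries at 3-8 h lie above 85 CPM, apart from the others, and at 24 h all 5 libraries exceed all 10 libraries processed at 1 h.

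DNMT3B, the de novo methyltransferase, measured 58.2, 72.1, 60.3, 62.0 and 64.3 CPM in coccygeal blood of subjects A to E, and 60.5, 76.98, 65.7, 63.9 and 73.4 CPM in their jugular blood at 1 h. In the 15 libraries at 3-8 h the lowest value was 63.4, the median 70.2 and the highest 99.4 CPM. At 24 h the values were 111, 103, 83.5, 92.1 and 96.7 CPM. All 5 libraries at 24 h were above every library processed at 1 h, of either vein, and 2 of them were above every library at 3-8 h. Within subjects the log2 difference of jugular 24 h from jugular 1 h was positive in 5 of 5, between 0.34 (subject C) and 0.87 (subject A). The same subject A had the lowest DNMT3B of all 5 at 1 h in both veins and the highest at 24 h.

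TERT, the catalytic subunit of telomerase, measured 18.2, 19.5, 20.6, 15.1 and 15.3 CPM in coccygeal blood of subjects A to E, and 12.98, 19.2, 17.9, 16.8 and 21.4 CPM in jugular blood at 1 h. At 3-8 h its lowest, median and highest values were 14.3, 20.4 and 32.7 CPM. At 24 h it measured 22.0, 33.8, 20.5, 32.9 and 26.9 CPM. The 24 h libraries of subjects B and D stood above all 15 libraries at 3-8 h, and that of subject C, the lowest, was below the highest library at 1 h in each vein, so that the groups overlapped. The difference of jugular 24 h from jugular 1 h was positive in 5 of 5 subjects, between 0.19 (subject C) and 0.97 (subject D) on the log2 scale. In the 15 libraries at 3-8 h, TERT left a gap between 22.3 CPM, in the tenth library from the bottom, and 28.2 CPM in the next, above which lay 5 libraries.

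MSH5, the meiotic MutS homolog, measured 2.55, 3.10, 3.35, 1.61 and 3.40 CPM in coccygeal blood and 3.44, 2.71, 3.39, 2.21 and 2.82 CPM in jugular blood at 1 h. Its values at 3-8 h ran from 2.24 to 4.83 CPM with a median of 3.20. At 24 h it measured 4.50, 6.04, 5.72, 2.78 and 5.05 CPM. Subject D had the lowest MSH5 in all 3 groups in which subjects are known, and without that library the 24 h values would lie above every library at 1 h. The log2 difference of 24 h from jugular 1 h lay between 0.32 (subject D) and 1.12 (subject B) and was positive in 5 of 5.

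SNAPC4, of the small nuclear RNA activating complex, measured 88.8, 83.0, 94.2, 57.1 and 63.7 CPM in coccygeal blood and 65.2, 81.0, 83.9, 60.8 and 79.4 CPM in jugular blood at 1 h. At 3-8 h it ran from 56.9 to 113 CPM with a median of 91.7. At 24 h the subjects lay close together, at 105, 114, 104, 100.4 and 113 CPM, all above the highest library at 1 h. The SD as a share of the mean was 20.9% in coccygeal blood, 13.9% in jugular blood at 1 h, 19.3% at 3-8 h and 5.59% at 24 h. The differences between jugular 24 h and 1 h were positive in 5 of 5 subjects, from 0.31 to 0.72 on the log2 scale.

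TEAD3, PROX2 and BSX are transcription factors that were scarce in these cells. TEAD3 measured 5.09, 3.21, 2.19, 2.74 and 3.29 CPM in coccygeal blood and 3.59, 2.76, 3.07, 2.67 and 3.14 CPM in jugular blood at 1 h, then 2.64 to 5.82 CPM (median 3.60) at 3-8 h and 7.06, 3.79, 2.99, 6.06 and 6.00 CPM at 24 h. In subject C TEAD3 was as low at 24 h as at 1 h (log2 difference -0.04), while the other 4 subjects were higher at 24 h by 0.44 to 1.15. PROX2 measured 2.199, 2.38, 2.53, 1.55 and 1.73 CPM in coccygeal blood, 2.00, 1.73, 2.61, 1.16 and 1.77 CPM in jugular blood at 1 h, 1.06 to 3.05 CPM (median 1.78) at 3-8 h and 3.29, 2.69, 2.53, 2.59 and 2.45 CPM at 24 h. For PROX2 too, subject C stood apart from the other 4, with a log2 difference of -0.04 against 0.44 to 1.08, and the median at 3-8 h was at the level of jugular blood at 1 h (1.77 CPM). BSX measured 0.637, 0.831, 0.889, 0.776 and 0.502 CPM in coccygeal blood and 0.821, 1.03, 0.913, 0.639 and 0.645 CPM in jugular blood at 1 h, or 8 to 19 counts. It ran from 0.4998 to 1.64 CPM (median 1.15) at 3-8 h and measured 1.89, 1.21, 1.75, 1.199 and 1.18 CPM, or 15 to 31 counts, at 24 h. The BSX values at 24 h did not overlap those of either vein at 1 h. Of all genes 1.44% lay wholly higher at 24 h than in jugular blood at 1 h, and 1.37% than in coccygeal blood. BSX was chosen on 24 h against 1 h and passed the filter through the stored libraries, so its separation is a description.

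The vein from which blood was drawn was compared within subjects, at 1 h. No gene passed the test: 0 of 14018 genes were called (0%) by the rule of an adjusted p (FDR, Benjamini-Hochberg) under 0.05 in both edgeR and DESeq2 and an absolute log2 fold change above 0.5. Each tool alone gave 0 genes at that FDR, and 278 genes (1.98%) had an unadjusted p under 0.05 in edgeR and 101 (0.721%) in DESeq2. The jugular libraries at 1 h took part in the choice of the 7 DNA-binding genes, so the values of these 7 are a description. Of them 0 were called and 0 had an unadjusted p under 0.05. Their log2 differences of coccygeal from jugular blood lay between -0.16 for BSX and 0.18 for PROX2. For the abundant genes the 95% intervals were narrow, -0.26 to 0.06 for DNMT3B, -0.27 to 0.31 for TERT and -0.15 to 0.26 for SNAPC4. For BSX, with the fewest counts, the interval ran from -1.13 to 0.82, which leaves room for a large difference either way. DNMT3B was lower in coccygeal blood in 5 of 5 subjects, by 0.04 to 0.19 on the log2 scale (edgeR p = 0.121 before adjustment, FDR = 1.00). How many of all genes were lower in 5 of 5 was not counted.

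Storage for 3 to 8 h was compared with coccygeal blood at 1 h, since neither group took part in the contrast by which the 7 genes were chosen. Here vein and storage differ together. Each heifer gave 1 library to the coccygeal group and 3 to the stored one, but the stored libraries were not joined to heifers. The test therefore has no subject block. The spread it uses therefore holds the differences between heifers, and its p-values may be too large. In 24 h against 1 h of jugular blood, where both fits could be made, leaving out the block lowered the genes called from 361 to 30. Of the 14018 genes 0 were called (0%), by both tools together or by either alone. The log2 fold changes of the DNA-binding genes were 0.24 for DNMT3B, 0.36 for TERT, 0.33 for MSH5, 0.23 for SNAPC4, 0.23 for TEAD3, -0.07 for PROX2 and 0.54 for BSX. BSX passed the filter through the stored libraries, so its value here is a description. Of the other 6 genes 5 were above 0, with a median of 0.24, while 55.0% of all genes were above 0 and their median was 0.01. Before adjustment the edgeR p was 0.0279 for DNMT3B and 0.0340 for TERT, and over all genes 182 (1.30%) had a p under 0.05 in edgeR and 220 (1.57%) in DESeq2. After adjustment over all genes the FDR was 1.00 for each of the 6, so that no difference passed the test against a spread that includes the heifers. The 95% intervals were 0.04 to 0.43 for DNMT3B and 0.05 to 0.65 for TERT, while those of MSH5, SNAPC4, TEAD3 and PROX2 included 0.

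Some of the libraries at 3-8 h stood above all of the coccygeal ones. For DNMT3B 6 of the 15 libraries lay above the highest coccygeal library, for TERT 7, for MSH5 6, for SNAPC4 7, for PROX2 2 and for TEAD3 1. For BSX it was 10, a description, since BSX passed the filter through the stored libraries. The groups overlapped for all 7, and for every other gene tested too, since 0 of 14018 genes (0%) had all 15 libraries above or below all 5.

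**Figure D2:**
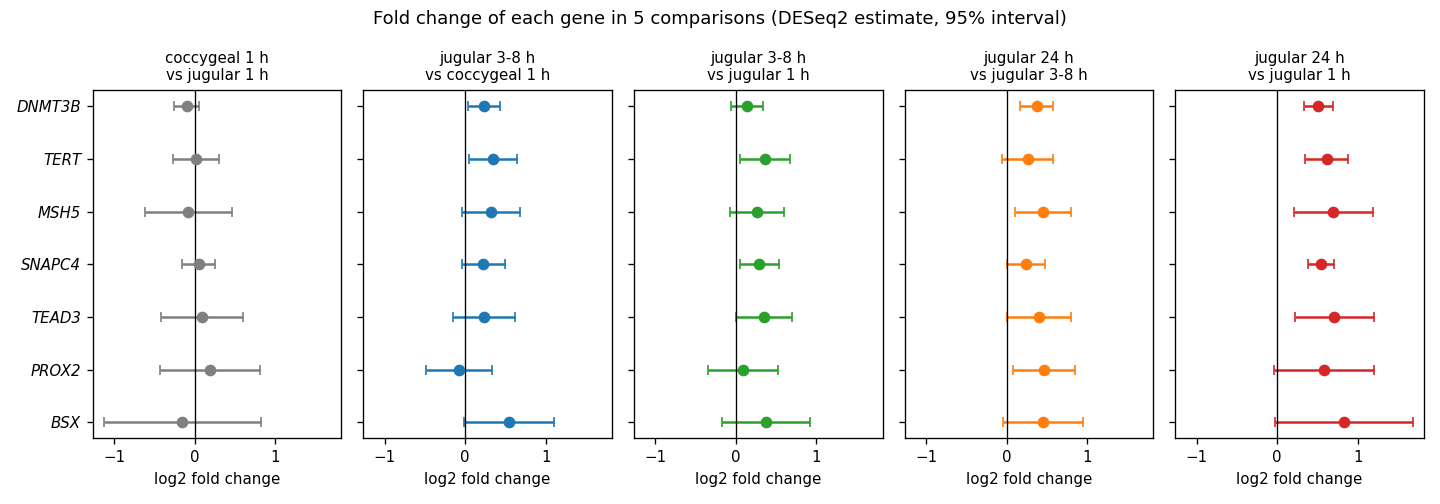
Log2 fold changes (points) with 95% intervals (bars) from DESeq2 for the 7 genes in each of 5 comparisons, the group named at the top minus the group named under it. Intervals are narrow for DNMT3B and SNAPC4 and wide for BSX; between veins all 7 include 0.

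Against jugular blood at 1 h, libraries that the choice of the 7 genes had used, storage for 3 to 8 h, again with no subject block, gave 0 calls among 14018 genes (0%), with 174 genes (1.24%) under an unadjusted p of 0.05 in edgeR and 234 (1.67%) in DESeq2. The log2 fold changes were 0.14 for DNMT3B, 0.36 for TERT, 0.27 for MSH5, 0.30 for SNAPC4, 0.35 for TEAD3, 0.09 for PROX2 and 0.38 for BSX. The jugular libraries at 1 h took part in the choice of the genes, so these differences were not read as a test of them.

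Storage for 24 h was also compared with 3 to 8 h, a comparison that shares the 24 h libraries with the choice of the genes and has no subject block. Over all genes 28 were called (0.2%), 20 higher and 8 lower at 24 h (15 without the 24 h library of subject A and 17 without that of subject D), and of the DNA-binding genes 0. Their log2 fold changes lay between 0.24 (SNAPC4) and 0.46 (PROX2 and MSH5). Genes chosen for being high in these 24 h libraries tend to have values above 0 here by that choice, so these are a description. The values between were 0.26 for TERT, 0.37 for DNMT3B, 0.41 for TEAD3 and 0.45 for BSX. Over all genes 57 (0.407%) passed the FDR in edgeR and 233 (1.66%) in DESeq2. The median of PROX2 was 1.78 CPM at 3-8 h and 2.59 CPM at 24 h.

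In the contrast that chose them, 24 h against 1 h of jugular blood, the DNA-binding genes were higher by 0.51 (DNMT3B), 0.62 (TERT), 0.70 (MSH5), 0.55 (SNAPC4), 0.72 (TEAD3), 0.57 (PROX2) and 0.82 (BSX) on the log2 scale. The rule called 5 of the 7, and 203 of all 14018 genes were called higher (1.45%); since the genes were chosen on this contrast, nothing follows from that count. The groups did not overlap for 3 of the 7, DNMT3B, SNAPC4 and BSX, against 202 genes (1.44%) with all 24 h libraries above all at 1 h, and 5 of the 7 were higher in 5 of 5 subjects, as were 12.3% of all genes. Nearest to the fold threshold from inside was DNMT3B, whose log2 fold change was 0.42 without subject A. PROX2 was outside the rule through its adjusted p and not its size. DESeq2 gave BSX no adjusted p, and the unadjusted DESeq2 p of BSX, 0.0572, was already above the FDR threshold of the rule. DNMT3B and SNAPC4 had the smallest standard errors (0.09 and 0.08) of the 7. With no subject block the rule called 2 of the 7 and 30 of all genes. Leaving out subject A left 2 of the 7, TERT and SNAPC4, and leaving out B, D or E left 3, DNMT3B, TERT and SNAPC4. Without subject C 4 were called, those 3 and TEAD3.

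With the coccygeal libraries at 1 h as the baseline in place of the jugular ones, a comparison chosen after the data had been seen, the log2 fold changes at 24 h were 0.61 for DNMT3B, 0.60 for TERT, 0.78 for MSH5, 0.50 for SNAPC4, 0.64 for TEAD3, 0.39 for PROX2 and 0.98 for BSX. The 24 h libraries are those that chose the genes. DNMT3B and MSH5 met the rule, among 121 genes called higher of 14018 (0.863%). All 5 libraries at 24 h were above all 5 coccygeal ones for 3 of the 7, DNMT3B, SNAPC4 and BSX, and for 1.37% of all genes. Nothing follows from that count, since the 24 h libraries chose the genes and BSX passed the filter through the stored libraries.

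The genes varied together only in part. Over the 15 libraries at 3-8 h, Pearson's r of log2(CPM + 1) was between 0.59 and 0.86 for the 6 pairs among DNMT3B, TERT, MSH5 and SNAPC4, highest for TERT with SNAPC4. TEAD3 had an r below 0 with each of the other 6 genes, from -0.36 with PROX2 to -0.01 with DNMT3B. Over all 30 libraries, where the groups by which the genes were chosen add to r, TEAD3 had an r of 0.17 to 0.43 with the other 6, and all 21 pairs were above 0 (median 0.46). Over the 15 libraries at 3-8 h, PROX2 and BSX had an r of 0.41 with each other, and PROX2 one of 0.49 with SNAPC4. At 3-8 h the median over all 21 pairs was 0.12, and over pairs of the 7 genes with all 14011 other genes tested it was 0.05. Of the 5 libraries in which DNMT3B was highest, 4 were also among the 5 highest for TERT, 4 for MSH5 and 4 for SNAPC4, against 1 for TEAD3, 2 for PROX2 and 1 for BSX. At 3-8 h BSX had 8 to 32 counts per library, PROX2 18 to 51, MSH5 38 to 88 and TEAD3 39 to 111. Such low counts add noise that can lower r, and how far they did was not tested. The points share libraries, heifers and depth, and the storage time and heifer of each are unknown, so the values are a description.

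**Figure D3:**
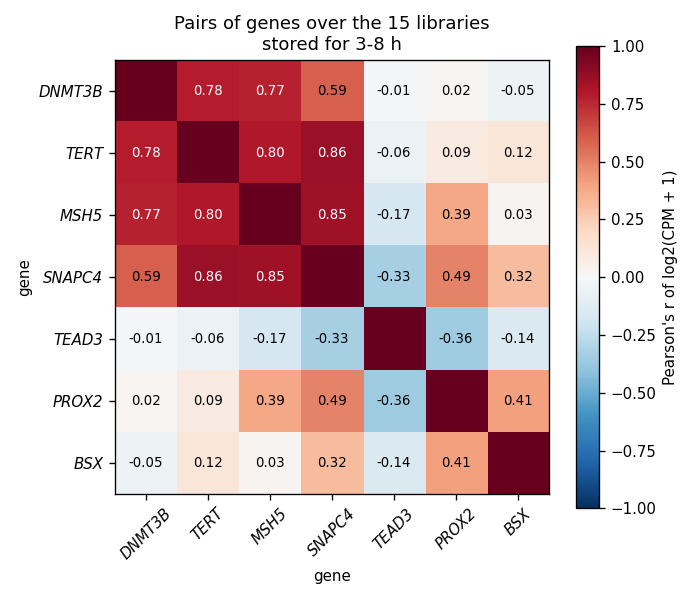
Pearson's r of log2(CPM + 1) for each pair of the 7 genes over the 15 jugular libraries stored for 3-8 h (red above 0, blue below 0). DNMT3B, TERT, MSH5 and SNAPC4 form a block with r from 0.59 to 0.86, and TEAD3 has r below 0 with every other gene in these libraries. Low counts, fewest for BSX and PROX2, can lower r.

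Among the genes that could be named, the pattern most like each gene over all 30 libraries was sought by the same r. DNMT3B was closest to DEPDC5 (r = 0.91) and NOX1 (0.88), TERT to TRABD (0.91) and SLC52A2 (0.89), and SNAPC4 to DGCR2 (0.95) and PHF1 (0.93). MSH5 was closest to SLC9A5 (0.84) and SLC17A9 (0.83), PROX2 to ASB11 (0.84) and RFXANK (0.80), TEAD3 to EHD3 (0.77) and COX8B (0.72), and BSX to KCNMB3 (0.69). The search covered the 1731 named genes past the filter, and the 30 libraries share heifers, groups and depth. Some names came from the study's lists of genes changed on the contrast that chose the DNA-binding genes. For a match from those lists, r can be raised by that choice. Among all genes, the closest named gene ranked 1 for TERT and PROX2, 3 for TEAD3 and 4 for DNMT3B. It ranked 6 for MSH5 and 8 for SNAPC4 and BSX, so unnamed genes were often closer.

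Genes of the pathways around these 7 were followed in lists of 100 partner genes, of which 18 could be joined to an identifier, and all 18 passed the filter. Except for ZBTB38, joined through the study's lists of genes changed at 24 h, they were not chosen in the way the 7 were. The difference between the partner genes and the 7 was not tested. In storage for 3 to 8 h against coccygeal blood 0 of 18 were called (0% of all genes), 12 of 18 log2 fold changes were above 0, and all lay between -0.11 and 0.09. In 24 h against 1 h of jugular blood 1 of 18 was called, against 2.58% of all genes. That 1 was ZBTB38, so the count is a description. The median log2 fold change was -0.06 against 0.01 for all genes.

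Around DNMT3B, the list of DNA methylation held DNMT1, the maintenance methyltransferase, UHRF1, which guides it to replicated DNA, and ZBTB38, which binds methylated DNA. ZBTB38 fell at 24 h, from 104 to 72.9 CPM (log2 fold change -0.51, FDR = 0.00359 in edgeR and 7.69e-07 in DESeq2), and it was joined only because the study lists it as changed on these samples. Without subject B or without subject E it was not called. ZBTB38 was lower at 24 h than at 3-8 h as well, by -0.42 (FDR = 0.0148 in edgeR), a size under the threshold. DNMT1 (124 CPM at 1 h and 115 at 24 h) and UHRF1 (48.5 and 45.2 CPM) were not called, with log2 fold changes of -0.10 and -0.11. At 3-8 h against coccygeal blood UHRF1 had the smallest p of the list (log2 fold change 0.06, p = 0.507 before adjustment in edgeR).

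Around TERT, 6 genes of telomerase and telomeres could be followed, TINF2, TEP1, GAR1, WRAP53, SMG6 and PINX1, and 0 were called in any of the 5 comparisons. TINF2, a subunit of the shelterin complex on telomeres, had the smallest p of the list in both comparisons, and its level in jugular blood was 69.7 CPM before and 80.6 CPM after 24 h of storage (log2 fold change 0.21, FDR = 0.0434 in edgeR and 0.0647 in DESeq2). At 3-8 h against coccygeal blood the log2 fold change of TINF2 was 0.09 (p = 0.159 before adjustment in edgeR). GAR1, a protein of the H/ACA particle that holds the telomerase RNA, measured 21.9 and 26.3 CPM at 1 and 24 h (log2 fold change 0.27, FDR = 0.0797 in edgeR).

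Around MSH5, MSH6, a MutS homolog of mismatch repair in dividing cells, was not called in any comparison. MSH6 measured 145 CPM in jugular blood at 1 h, then 127 CPM at 24 h, and its log2 fold change of -0.20 passed the FDR in both tools (0.0343 in edgeR and 0.0389 in DESeq2) but was under the size threshold.

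Around SNAPC4, the genes BDP1, GTF2B and ELL of RNA polymerase III and small nuclear RNA initiation gave 0 calls of 3 in all 5 comparisons. BDP1, a subunit of the initiation factor TFIIIB, measured 145 CPM in jugular blood at 1 h against 134 CPM at 24 h (log2 fold change -0.12, FDR = 0.154 in edgeR), and its log2 fold change at 3-8 h against coccygeal blood was 0.06 (p = 0.599 before adjustment in edgeR).

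Around TEAD3, the Hippo pathway was followed by STK4, SAV1 and TAOK1, and 0 of 3 were called in all 5 comparisons. STK4, a kinase at the head of the pathway that is abundant in lymphocytes, measured 198 CPM in jugular blood at 1 h against 151 CPM at 24 h, a log2 fold change of -0.39 that passed the FDR (0.00372 in edgeR) and not the size threshold. Its log2 fold change at 3-8 h against coccygeal blood was -0.11 (p = 0.0361 before adjustment and FDR = 1.00 in edgeR). For PROX2 and BSX the only partner that could be followed was ADNP, a homeobox protein, whose log2 fold changes were 0.02 and -0.07 in the same comparisons (FDR = 1.00 and 0.426 in edgeR).

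**Figure D4:**
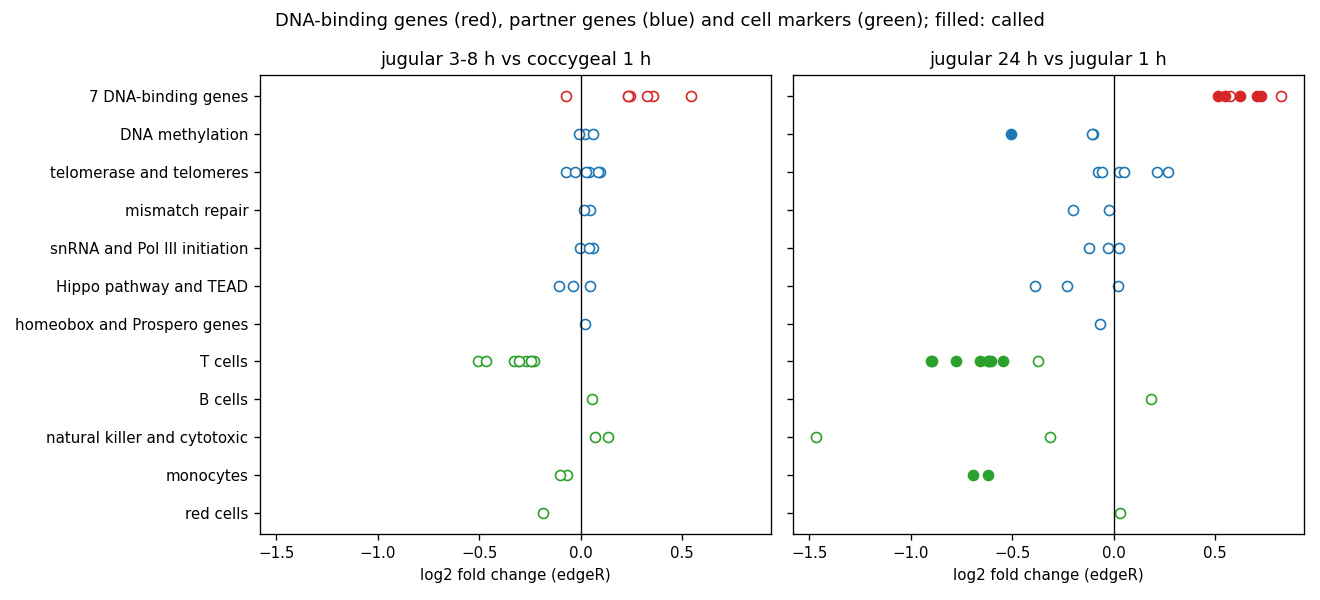
Log2 fold changes (edgeR) of the 7 DNA-binding genes (red), the 18 partner genes by list (blue) and 15 markers of blood cells (green) in jugular 3-8 h against coccygeal 1 h (left) and jugular 24 h against jugular 1 h (right); filled points were called. At 24 h ZBTB38 is the only partner called, and 10 of 15 markers are called lower; the 7 genes and 10 of the markers come from the study's lists of changed genes.

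Markers of the cells in the preparation were followed over storage, 15 in all, of which 10 came from the study's lists of genes lower at 24 h. At 3-8 h 0 of the 15 were called against either vein at 1 h. Of the T cell markers 9 of 14 could be joined, 7 of them from the study's lists of genes lower at 24 h, which is no independent evidence of their direction. Their summed level was 995 to 1869.5 CPM in coccygeal blood, 989 to 1559 CPM in jugular blood at 1 h, 879 to 1531 CPM at 3-8 h and 591 to 987 CPM at 24 h. At 24 h against 1 h all 9 log2 fold changes were below 0 (median -0.62), and 8 genes were called lower. TCF7, one of 2 markers that did not come from those lists, had -0.38 and was not called. It passed the FDR (0.00683 in edgeR and 2.38e-05 in DESeq2) but was under the size threshold. CD4, the other, fell by 0.62 and was called. At 3-8 h against coccygeal blood all 9 log2 fold changes were below 0 (median -0.31), 5 of them with an unadjusted p under 0.05 in edgeR, and 0 were called. Vein and storage differ together there, and at 1 h all 9 were higher in coccygeal than in jugular blood (median 0.17). Against jugular blood at 1 h their median at 3-8 h was -0.13, with 0 of 9 under an unadjusted p of 0.05 in edgeR. The B cell marker CD79A measured 504 CPM in jugular blood at 1 h against 575 CPM at 24 h (log2 fold change 0.18, FDR = 0.185 in edgeR), with a range of 439 to 559 CPM in jugular blood at 1 h and 477 to 696 CPM at 24 h. The monocyte markers CD14 and VCAN, both from the study's lists, fell by 0.62 and 0.69, with a summed level of 268 to 492 CPM at 1 h and 164 to 320 CPM at 24 h. PRF1 and GZMB, of cytotoxic cells, had log2 fold changes of -0.32 and -1.47 and were not called, with a summed level of 109 to 159 CPM at 1 h and 62.0 to 145 CPM at 24 h. PRF1 passed the FDR (0.0199 in edgeR and 0.00491 in DESeq2) but was under the size threshold. GZMB, joined from the study's lists of genes lower at 24 h, did not pass the FDR (0.180 in edgeR). GATA1, of red cell precursors, was at 4.18 to 10.2 CPM at 1 h and 3.03 to 8.57 CPM at 24 h. None of the markers followed was at 0 in any group, and PTPRC and markers of neutrophils and platelets were not analysed here. The part of the cell markers in the values of the DNA-binding genes was not tested; in bulk RNA, fewer cells of a type and less RNA per cell cannot be told apart.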

How the data were processed

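RNA of PWBCs was sequenced from 30 samples with a stranded mRNA kit. The authors trimmed the reads with cutadapt 2.8, aligned them to ARS-UCD1.2 with HISAT2 2.2.0, handled alignments with SAMtools 1.10, took out duplicates, and assigned fragments to Ensembl genes without strand with featureCounts of Subread 2.0.1; they deposited these counts for 27607 genes, not normalized. The annotation release is named in more than 1 way in the study's sources. Columns were joined to groups and subjects through the study's supplementary code, and the 15 columns left over are the jugular samples of 3, 6 and 8 h. Some supplementary tables hold the authors' own fold changes and p-values, which were not used; only names, coordinates and lengths were taken.

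Counts were fitted with edgeR 4.0.16 (quasi-likelihood test, library size as the only scaling, robust) and DESeq2 1.42.0 (Wald test, source of SEs and 95% intervals) in R 4.3.3, over the 14018 genes whose CPM exceeded 1 in at least 5 libraries. Fits of 1 h veins and of 24 h against 1 h had the subject as a block. The pairing comes from the study's code and was checked: deviations from group means correlated between same-subject libraries with r of at least 0.41 between veins and 0.54 between times, and at most 0.09 and 0.14 between different subjects. No 2 libraries agreed within sampling noise. Subject differences used a prior count of 2. The fits were tested on simulated data. The 95% intervals are those of the estimated log2 fold change, from its SE, and single subjects can lie outside them. They rest on the spread between these samples alone.

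The 7 genes, partner lists and markers were chosen with earlier results of these data known. Named partners are those called in any comparison and, in each list, the smallest edgeR p in jugular 3-8 h against coccygeal 1 h and in 24 h against 1 h; the 2 named genes most like each gene in pattern are given too, except that some genes these rules name are not reported here. GAR1, the other members of short lists and the markers were named after their values were seen. Alternatives were TMM scaling, no filter, a stricter filter of 15 libraries, each tool alone, no threshold on fold change, no block, each subject or library left out, levels not divided by length, and, added after seeing the data, the coccygeal baseline. RNA integrity was not analysed here.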

Additional observations from a re-analysis of the deposited data

How the results depend on the processing

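In the vein comparison and in both comparisons of 3-8 h with 1 h, every alternative listed under the processing that was run gave 0 genes called. For 24 h against 3-8 h the count of 28 genes became 68 with DESeq2 alone, 57 with no threshold on the fold change and 15 to 34 with each 24 h library left out, lowest without subject A (15) and D (17); 2 partner genes, ZBTB38 and STK4, were called with no fold threshold. For 24 h against 1 h the 361 genes became 1301 with no fold threshold and 30 with no replicate block, and 156 to 396 with each subject left out, below the main count by over 1.5 times without A (156) and B (237). The DNA-binding genes called went from 5 to 2 with no replicate block, 2 with the coccygeal libraries as baseline and 2 to 4 with each subject left out; partner genes called went from 1 to 3 with no fold threshold, 0 with the coccygeal baseline and 0 to 1 with each subject left out, 0 without B or E. The block changed no other call of these genes.

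Directions near 0 turned when 1 library or subject was left out: between veins, with each subject left out, TERT lay from -0.0992 to 0.139, MSH5 from -0.162 to 0.0204, SNAPC4 from -0.0498 to 0.141 and TEAD3 from -0.0262 to 0.226, each turning without subject A and TERT also without C (-0.0278); PROX2 lay from -0.162 to 0.00429 in 3-8 h against coccygeal blood, turning without coccygeal C, and from -0.0407 to 0.242 against jugular 1 h, turning without jugular D. No direction of the 7 genes turned at 24 h. Of their 91 alternative values at 24 h against 1 h, 16 lost and 1 gained the call. Not divided by length, the order in jugular blood at 1 h put SNAPC4 at 1, DNMT3B at 2, TEAD3 at 4, MSH5 at 5, PROX2 at 6 and BSX at 7. Counts of 8 to 32 limit BSX most.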
